A study of Mus musculus with 4 samples.

Results

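Wnt signalling genes were compared between NSCL61 and NSCL61-sox11, a pair of mouse neural cell lines measured on Affymetrix M430_2 arrays. The set holds 58 genes, chosen by name with earlier results of these data known: Wnt ligands, their receptors, secreted antagonists, intracellular parts and target genes. Of these, 57 had at least 1 probe set mapped to that gene alone, out of 18193 such genes on the array, and Tcf7 was not analysed here. Each gene is represented by its probe set with the highest mean over the 4 arrays. NSCL61 is labelled a p53-/- C57BL/6 line of neural stem cells that resembles glioma-initiating cells and derives from embryonic day 14.5 mouse brain. NSCL61-sox11 carries the same labels and also expresses sox11. For both lines the protocol describes telencephalic neuroepithelial cells expanded as floating spheres without serum, with PDGF, bFGF, forskolin and insulin among the additions. The sources used here do not say how Sox11 expression was driven, and each genotype is 1 line with 2 arrays. The submitters state that the sox11-expressing line no longer formed tumours once transplanted. They compared the lines to find genes whose expression differs.

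Wnt proteins are secreted lipid-modified ligands that bind Frizzled receptors together with the co-receptors Lrp5 and Lrp6. In the canonical branch this stops a complex of Axin, Apc and Gsk3b from marking beta-catenin for destruction, and beta-catenin then joins Tcf and Lef factors on target genes such as Axin2. In the embryonic forebrain the pathway is known for its part in dorsal patterning and in the balance of progenitor division and neuron formation, and noncanonical branches act on cell polarity and movement.

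The deposited values were read as log2 and ran from 2.13 to 14.62. On this scale Sox11 read 5.09 and 4.82 in NSCL61 and 7.74 and 7.97 in NSCL61-sox11, in the labelled direction. Arrays of a line correlated at 0.995 and 0.994 and arrays of different lines at 0.968 to 0.972, across probe sets that are not independent replicates. Of 9 tested neural stem and progenitor markers, Slc1a3 rose and Sox2, Pax6 and Vim fell, a share of 44.4% beside 19.2% of all tested genes. The summed level of the list was 14.58 to 14.63 in NSCL61 and 14.32 to 14.42 in NSCL61-sox11. Fabp7 and Prom1 were at 3.54 to 4.39 and below the level filter on means. Separate cultures are not stated for the arrays of either line, so p-values measure array-to-array spread alone, and that spread may be technical. An exact permutation test of 2 arrays against 2 cannot go below 0.333, so the calls rest on limma, which pools variance information over all probe sets.

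Among the Wnt genes, 10 rose and 5 fell in NSCL61-sox11. The gains were led by the ligand gene Wnt10a (7.38-fold) and the R-spondin receptor gene Lgr4 (4.25-fold), followed by the Frizzled genes Fzd2, Fzd8, Fzd1 and Fzd7, the antagonist gene Dkk2, the nuclear factor genes Tcf7l1 and Tcf7l2, and Wls. The losses were Wnt7b (2.66-fold), the antagonist gene Apcdd1 (2.27-fold), Fzd3, Dvl1 and Znrf3. Most of the core of the canonical pathway, including Ctnnb1, Gsk3b and Axin1, did not pass the test on the deposited scale. None of the feedback target genes passed either, and all of them had low levels.

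These counts come from the 47 members whose mean level was among the brightest 60% of probe sets, with a call at a limma adjusted p under 0.05. A share of 31.9% of the tested members was called, beside 19.2% of all 13084 tested genes, where 10% rose and 9.19% fell. Because members and lists were chosen with earlier results of these data known, their shares are not those of independently chosen sets. At least 2-fold changes were called for 6 members that rose and 2 that fell, beside 4.48% of all genes in either direction. The median log2 fold change was 0.07 for the members and -0.02 for all genes. Arrays of the lines did not overlap for 28 of the 47 members, and for 62.2% of all genes tested. Leaving out array 1 or array 2 of NSCL61 gave 9 called members each time, and leaving out array 1 or array 2 of NSCL61-sox11 gave 17 and 13. The count was 6 when the poly-A spike-in probe sets set the scale of each array, which moves every log2 fold change by -0.40, and the split was then 2 up and 4 down. Under that scaling the median of all genes was -0.42, and the calls of Wls, Fzd1, Fzd2, Fzd7, Fzd8, Znrf3, Dkk2, Tcf7l1 and Tcf7l2 were lost at limma adjusted p between 0.0519 and 0.619. Such scaling moves each array by its own amount, so the spread within a line can change too. Znrf3 lost its call with poly-A scaling although its fall was larger there, at -0.85. With scaling to the hybridisation controls, 9 members rose and 7 fell. No called member changed sign under any of the 15 alternatives. All directions that follow use the deposited scale.

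**Figure D1:**
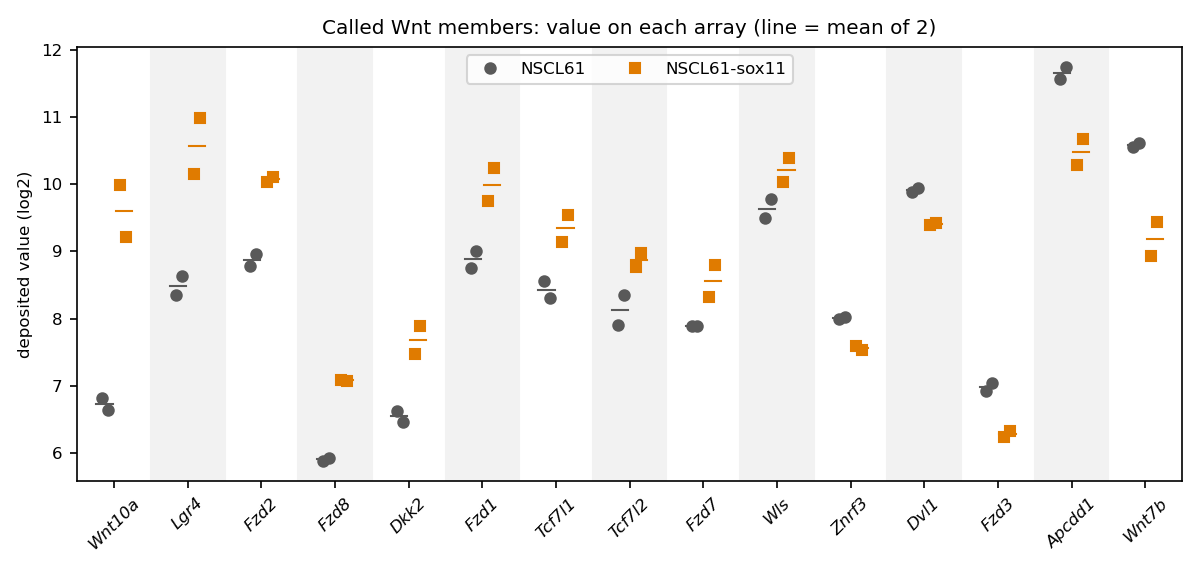
Deposited log2 value on each array for the 15 called Wnt members, ordered from the largest rise to the largest fall; circles are the 2 NSCL61 arrays, squares the 2 NSCL61-sox11 arrays and short lines their means. The 2 lines do not overlap for any of these genes, which were called on the same values.

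Markers of fibroblasts and meninges differed in the same comparison, with 80.0% called beside 19.2% of all genes. Of their 10 tested genes 8 rose and none fell, and the summed level of the list was 10.72 to 11.29 (log2) on the NSCL61 arrays and 12.17 to 12.97 on the NSCL61-sox11 arrays. Lum, Foxd1, Slc22a6 and Aldh1a2 of that list lay below the level filter. Of 9 endothelial and mural genes, Rgs5 and Acta2 rose and none fell, a share of 22.2%, near that of all genes. Their summed levels were 9.80 to 9.81 and 10.34 to 10.56, and Pecam1, Tek and Emcn were below the filter. Of 5 neuronal genes tested, Tubb3 and Syt1 rose and none fell, a share of 40.0%. Their list had summed levels of 8.95 to 8.96 and 9.29 to 9.34, and 7 others were below the filter. Limma called neither of the 2 tested genes of microglia and blood cells (also 0 at an unadjusted p under 0.05), with summed levels of 8.25 on both NSCL61 arrays and 8.13 to 8.20 on the others, and 8 others were below the filter. The part of these genes in the Wnt results was not tested. In such bulk RNA, a change in the share of cells of a type and a change in RNA per cell cannot be told apart.

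Among ligands and the genes of their release, 2 of 10 tested members rose and 1 fell. Wnt10a encodes a ligand of the canonical branch. Its single probe set read 6.81 and 6.63 on the NSCL61 arrays and 9.99 and 9.22 on the NSCL61-sox11 arrays. The lines were thus far apart, and the 2 NSCL61-sox11 arrays differed more from each other than the NSCL61 arrays did. The log2 change was 2.88 (SE 0.24, n = 2 arrays per line, adjusted p = 0.00091 by limma), and it lay between 2.50 and 3.27 when each array was left out in turn. In the mouse assembly GRCm38.p6 the neighbouring protein-coding genes of Wnt10a are Wnt6 and Prkag3 on one side and Cdk5r2 and Fev on the other. Wnt6, another ligand gene, read 6.46 and 6.35 in NSCL61 and 6.36 and 6.59 in NSCL61-sox11 (limma adjusted p = 0.75), and Cdk5r2 differed by -0.05 (log2; adjusted p = 0.80). Prkag3 was below the level filter and Fev was not analysed here.

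Wnt7b, a ligand of the developing forebrain that also acts on brain blood vessels, was high in NSCL61. Its brightest probe set read 10.56 and 10.62 there and 8.93 and 9.43 in NSCL61-sox11. This is a log2 change of -1.41 (SE 0.16, adjusted p = 0.0029 by limma), and its second probe set fell by 1.45. The call was kept without any 1 array and in the other alternatives.

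Wls, also named Wntless, encodes the carrier that brings lipid-modified Wnt proteins to the cell surface. It read 9.50 and 9.78 in NSCL61 and 10.04 and 10.39 in NSCL61-sox11, a narrow gap, with a log2 change of 0.57 (SE 0.15, adjusted p = 0.046 by limma). Of its 3 tested probe sets only this one was called, although the other two also lay higher in NSCL61-sox11. Its call did not hold when NSCL61 array 1 (adjusted p = 0.24), its array 2 (0.084) or array 2 of NSCL61-sox11 (0.083) was left out, with median centring (0.053), without an intensity trend (0.066), with the mean of its probe sets (0.087) and with hybridisation control scaling (0.13, where its log2 fold change was 0.36). Its highest adjusted p over the 15 alternatives, with poly-A scaling, was 0.62.

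The other 7 tested members of this role had log2 fold changes from -0.25 to 0.32, with no limma adjusted p below 0.15. They are Wnt4, Wnt5a, Wnt5b, Wnt6, Wnt7a, Wnt9a and Porcn, which encodes the enzyme that adds the lipid. Wnt5a, the standard ligand of the noncanonical branch, was the brightest of them. It read 8.72 and 8.73 in NSCL61 and 8.64 and 8.89 in NSCL61-sox11, so that its arrays overlapped. Its 3 tested probe sets differed by -0.01 to 0.27, and none was called. The one at 0.27 read 6.21 and 6.32 against 6.49 and 6.59, without overlap (limma adjusted p = 0.13). Wnt3 and Wnt11 were at 2.79 to 5.32 on every array and below the filter.

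**Figure D2:**
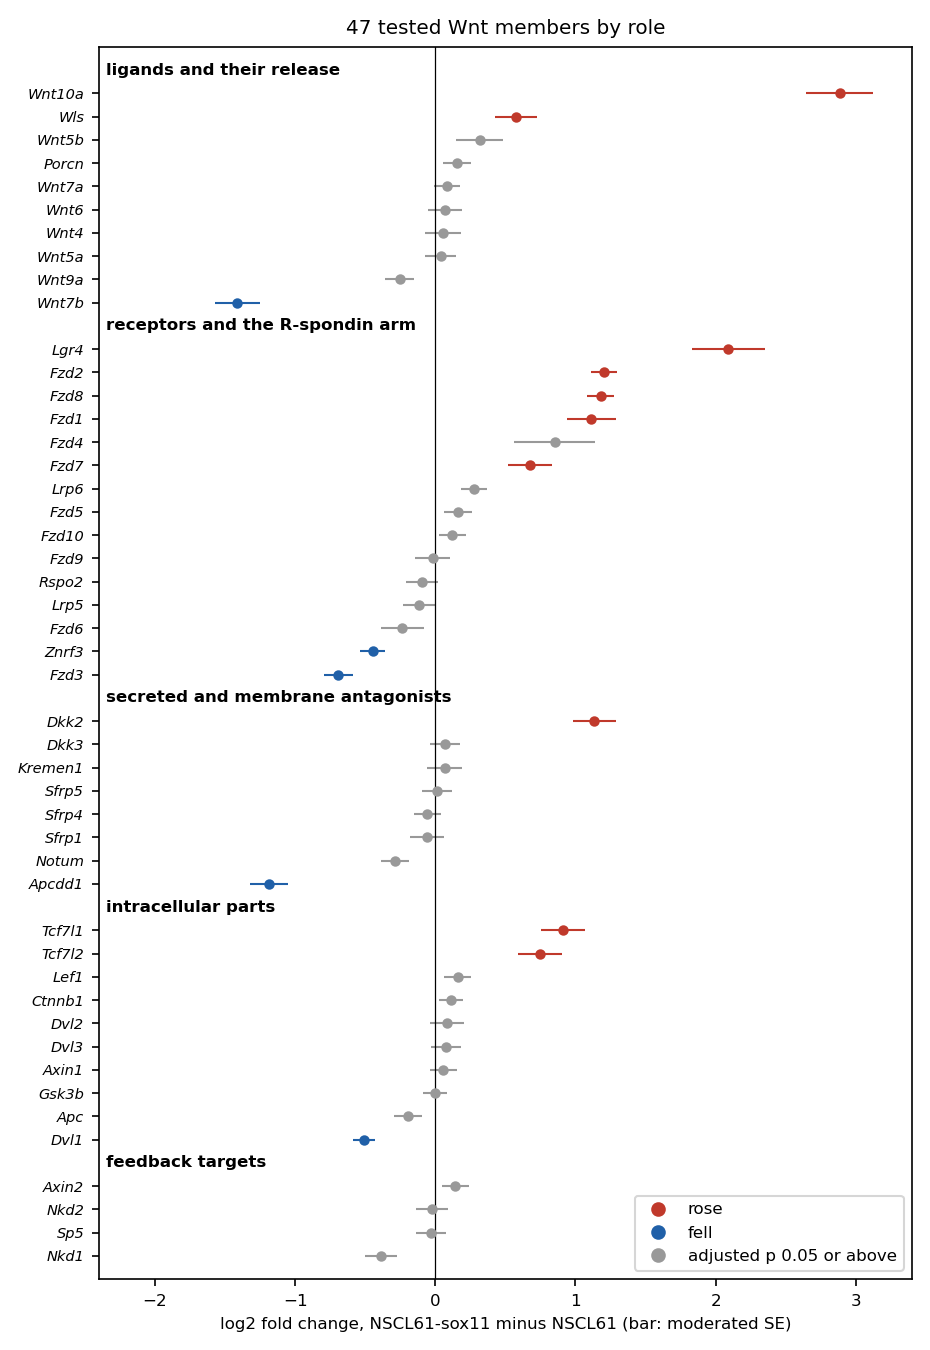
Log2 fold change, NSCL61-sox11 minus NSCL61, of the 47 tested Wnt members, grouped by role; points are limma estimates from 2 arrays per line and bars their moderated SE. Of the 15 receptor and R-spondin genes 5 rose and 2 fell (46.7%, beside 19.2% of all genes). None of the 4 feedback targets was called.

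Receptors held the largest number of calls, in the role with the most tested genes and with 46.7% called beside 19.2% of all genes. Of the 15 tested genes of this receptor and R-spondin role, 5 rose and 2 fell. These became 3 up and 1 down without NSCL61 array 1, and 4 up and none down without NSCL61 array 2, in the limma fit. Frizzled genes encode the membrane receptors that bind Wnt ligands directly. All 10 were tested, and their median log2 fold change was 0.42, against 0.013 under poly-A and 0.20 under hybridisation control scaling. Of them 4 rose and 1 fell.

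Fzd2 rose on each of its probe sets. Its brightest read 8.79 and 8.96 in NSCL61 and 10.04 and 10.11 in NSCL61-sox11, a log2 change of 1.20 (SE 0.09, adjusted p = 0.00073 by limma), and the 3 gave 1.18 to 1.33. Fzd8 read 5.87 and 5.92 against 7.09 and 7.07, a log2 change of 1.18 (SE 0.10, adjusted p = 0.00085 by limma). Its arrays lay close together inside each line, but its second probe set was below the filter at 3.18 to 3.59. Fzd1 rose on both of its probe sets, by 0.78 and 1.11. On the brighter one it read 8.75 and 9.01 in NSCL61 and 9.75 and 10.24 in NSCL61-sox11 (SE 0.18, limma adjusted p = 0.0090). The adjusted p of Fzd1 was 0.065 without NSCL61 array 1, and its highest over the 15 alternatives was 0.092.

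Fzd7 is closely related to Fzd1 and Fzd2. It read 7.88 and 7.89 in NSCL61 and 8.33 and 8.80 in NSCL61-sox11, a log2 change of 0.67 (SE 0.16, adjusted p = 0.033 by limma). Its second probe set differed by 0.16 and was not called, and the mean of both gave 0.42 (adjusted p = 0.056). Leaving out NSCL61 array 1 (adjusted p = 0.15) or array 2 (0.14) ended the call, and so did hybridisation control scaling (0.054), with a highest value of 0.465 over the 15 alternatives. The log2 fold change of Fzd7 without NSCL61-sox11 array 2 was 0.44. Fzd3, a receptor known for axon guidance and planar polarity, was the 1 Frizzled gene that fell. It read 6.92 and 7.03 in NSCL61 and 6.24 and 6.33 in NSCL61-sox11, a log2 change of -0.69 (SE 0.10, adjusted p = 0.0075 by limma), and 3 of its 4 tested probe sets were called downwards. Without NSCL61 array 2 the adjusted p of Fzd3 was 0.058, the highest over the 15 alternatives, and without probe sets of the _x_at and _s_at types its log2 fold change was -0.43.

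Fzd4, the receptor of norrin, was not called on its brightest probe set, where it read 6.85 and 7.25 in NSCL61 and 7.46 and 8.34 in NSCL61-sox11 (log2 fold change 0.85, SE 0.29, limma adjusted p = 0.095). The spread between the NSCL61-sox11 arrays was wide. Its other tested probe set was called, with 6.65 and 6.79 against 7.38 and 8.19 and a log2 change of 1.06 (SE 0.25, adjusted p = 0.034 by limma). Fzd6, the brightest Frizzled gene without a call, read 9.36 and 9.61 in NSCL61 and 9.05 and 9.45 in NSCL61-sox11, with overlapping arrays. Fzd5, Fzd9 and Fzd10 differed by 0.16, -0.02 and 0.12, and the co-receptor genes Lrp5 and Lrp6 by -0.11 and 0.28, and none of these passed.

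**Figure D3:**
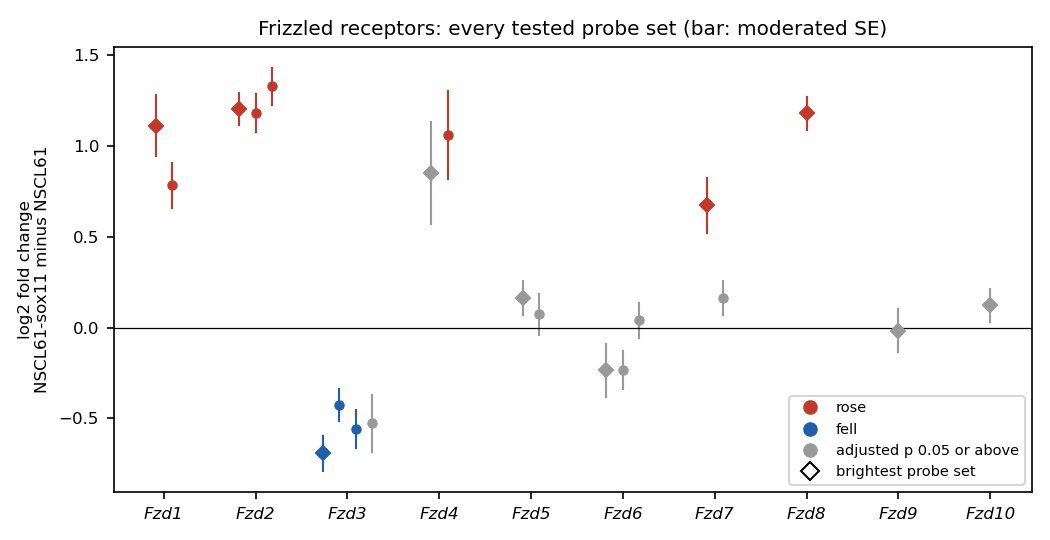
Log2 fold change, NSCL61-sox11 minus NSCL61, of every tested probe set of the 10 Frizzled genes; diamonds are the brightest probe set of a gene, circles the others, and bars the moderated SE from 2 arrays per line. The 3 probe sets of Fzd2 lie between 1.18 and 1.33, all 4 of Fzd3 lie below 0, and those of Fzd7 differ from each other at 0.67 and 0.16.

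In the R-spondin arm, Lgr4 rose and Znrf3 fell. R-spondins bind Lgr4 and Lgr5 and thereby remove the membrane ubiquitin ligases Znrf3 and Rnf43, which otherwise clear Frizzled receptors from the cell surface. Lgr4 read 8.35 and 8.63 in NSCL61 and 10.15 and 11.00 in NSCL61-sox11, with a log2 change of 2.09 (SE 0.26, adjusted p = 0.0041 by limma) that lay between 1.67 and 2.51 without any 1 array. The other Lgr4 probe set read 5.10 to 5.31 over both lines and was not called (limma adjusted p = 0.77), and the mean of the pair gave 1.01 (adjusted p = 0.010). Znrf3 moved the other way, from 7.99 and 8.02 to 7.59 and 7.52, a small and even shift of -0.45 (SE 0.09, limma adjusted p = 0.022), and its second probe set fell by 0.49. Leaving out NSCL61 array 1 (adjusted p = 0.12), its array 2 (0.14, the highest over the 15 alternatives) or array 2 of NSCL61-sox11 (0.055) ended the Znrf3 call.

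Among the R-spondin ligand genes, Rspo1 lay below the level filter, with a mean of 4.57 over the 4 arrays. It read 5.15 and 5.29 in NSCL61 and 3.81 and 4.01 in NSCL61-sox11. In a fit of all probe sets its log2 fold change was -1.31 (SE 0.12, limma adjusted p = 0.00089), where 13% of all 18193 genes were called and 6.01% were called downwards. Rspo2 differed by -0.095 and was not called, and Rspo3, Lgr5 and Rnf43 were below the filter at 3.72 to 4.84.

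The RefSeq promoters of GRCm38.p6 were searched for members, in the 250 bases before each start, on both strands. A promoter was listed for 36 of the 58 genes, with 46 promoters in all. The motifs were ATCAAAG, a form of the site that Tcf and Lef factors bind, AACAAAG, a form that Sox and Tcf factors share, and AACAATG, a form that Sox factors bind. No matches in the member promoters overlapped. ATCAAAG was in 3 of the 46 member promoters (6.52%) and in 3.21% of all 32851 promoters, AACAAAG in 4 (8.70%, against 5.03%) and AACAATG in 1 (2.17%, against 3.29%). The 2 below are shown because Lgr4 had the largest rise among receptor genes and because Fzd7 held a match. Capitals mark the match in Fzd7, and none of the 3 motifs is in the Lgr4 window.
Lgr4, chr2:109917397-109917646, plus strand: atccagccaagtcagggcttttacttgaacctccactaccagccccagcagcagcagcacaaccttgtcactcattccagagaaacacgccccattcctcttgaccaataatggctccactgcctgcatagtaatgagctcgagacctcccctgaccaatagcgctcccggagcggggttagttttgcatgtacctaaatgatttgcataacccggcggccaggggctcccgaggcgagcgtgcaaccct
Fzd7, chr1:59481897-59482146, plus strand: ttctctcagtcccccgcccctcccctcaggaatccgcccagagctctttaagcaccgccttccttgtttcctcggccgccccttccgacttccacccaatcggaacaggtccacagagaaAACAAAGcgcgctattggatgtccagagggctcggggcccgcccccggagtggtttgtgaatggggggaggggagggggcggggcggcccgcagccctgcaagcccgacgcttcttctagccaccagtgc

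Secreted and membrane antagonists showed 1 rise and 1 fall among 8 tested, a share of 25.0% beside 19.2% of all genes. Apcdd1, a membrane inhibitor of Wnt signalling that is itself a known Wnt target, was among the brightest values of the set. It read 11.58 and 11.76 in NSCL61 and 10.29 and 10.68 in NSCL61-sox11. Its log2 change was -1.18 (SE 0.14, limma adjusted p = 0.0031), and all 6 of its probe sets were called downwards, by -0.57 to -1.38. Dkk2, a secreted ligand of Lrp5 and Lrp6 from the Dickkopf family, read 6.62 and 6.46 in NSCL61 and 7.47 and 7.89 in NSCL61-sox11, a log2 change of 1.14 (SE 0.16, adjusted p = 0.0058 by limma). Its only probe set kept the call without any 1 array.

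Kremen1, which binds Dickkopf proteins at the membrane, was the brightest antagonist without a call at 7.44 and 7.50 in NSCL61 and 7.38 and 7.69 in NSCL61-sox11. Notum, an enzyme that removes the lipid from Wnt proteins, read 6.52 and 6.59 against 6.30 and 6.24 and did not pass (limma adjusted p = 0.099). Dkk3, Sfrp1, Sfrp4 and Sfrp5 differed by -0.06 to 0.07. Sfrp proteins bind Wnt ligands outside the cell. Dkk1, Sfrp2, Frzb and Wif1 were at 2.52 to 4.55 on every array and below the filter.

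Of the intracellular parts, 2 of 10 tested rose and 1 fell. When either NSCL61 array was left out, 1 rose and none fell. Tcf7l1 is a Tcf factor known chiefly as a repressor of target genes. It read 8.56 and 8.31 in NSCL61 and 9.15 and 9.54 in NSCL61-sox11, a log2 change of 0.91 (SE 0.16, adjusted p = 0.012 by limma). Its second probe set rose by 1.99, from 6.63 and 7.30 to 8.67 and 9.24, so both rose but by different amounts, and their mean gave 1.45. Without NSCL61 array 2 the Tcf7l1 call was lost (adjusted p = 0.081; highest over the 15 alternatives 0.215). Tcf7l2 read 7.91 and 8.35 in NSCL61 and 8.78 and 8.98 in NSCL61-sox11, a log2 change of 0.75 (SE 0.16, adjusted p = 0.025 by limma). Of its 4 probe sets 3 were called upwards and the fourth differed by 0.06. Without NSCL61 array 1 the Tcf7l2 call was lost (adjusted p = 0.12; highest over the 15 alternatives 0.358).

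Dvl1, one of the Dishevelled genes that link Frizzled receptors to the Axin complex, read 9.89 and 9.95 in NSCL61 and 9.40 and 9.42 in NSCL61-sox11. Its arrays were tight and its log2 fold change was -0.51 (SE 0.08, limma adjusted p = 0.0085), with -0.49 on its second probe set. Leaving out NSCL61 array 1 (adjusted p = 0.071) or array 2 (0.094) ended the call, the latter being its highest value over the 15 alternatives. Ctnnb1, which encodes beta-catenin, was the brightest member at 12.62 and 12.79 in NSCL61 and 12.71 and 12.92 in NSCL61-sox11, with overlapping arrays (log2 fold change 0.11, SE 0.09, limma adjusted p = 0.45). Axin1, Apc and Gsk3b, genes of the destruction complex, did not pass on any tested probe set. On the brightest, the values were 0.06 for Axin1, -0.20 for Apc and -0.0017 for Gsk3b. Over all tested probe sets, they ran from -0.099 to 0.06 for Axin1, -0.22 to -0.17 for Apc and -0.25 to 0.32 for Gsk3b. Dvl2, Dvl3 and Lef1 differed by 0.08 to 0.16 and did not pass. These arrays measure RNA and not the beta-catenin protein that the complex controls.

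A RefSeq promoter of Tcf7l2 held AACAATG on its minus strand, printed as CATTGTT in capitals, 103 bases before the start. It is shown because it held the 1 match to this motif among the members. A second listed Tcf7l2 promoter held AACAAAG on its minus strand instead.
Tcf7l2, chr19:55741560-55741809, plus strand: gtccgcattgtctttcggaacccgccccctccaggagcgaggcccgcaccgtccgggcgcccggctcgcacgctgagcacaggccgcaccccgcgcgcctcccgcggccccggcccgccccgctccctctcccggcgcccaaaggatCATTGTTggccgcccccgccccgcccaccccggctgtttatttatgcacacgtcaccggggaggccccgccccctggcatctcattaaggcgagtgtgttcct

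Feedback target genes are switched on by canonical signalling and in turn limit it. None of the 4 tested passed with limma, and 1 of them, Nkd1, had an unadjusted p under 0.05. A list of 4 is too short to set against the 19.2% called among all genes. All were dim, with means of 5.83 to 6.24 beside array medians of 5.74 to 5.78. None was among the brightest 40% of probe sets. Axin2, the target gene used most often as a readout of the canonical branch, read 6.19 and 6.14 in NSCL61 and 6.29 and 6.33 in NSCL61-sox11. The difference of 0.14 (SE 0.10, limma adjusted p = 0.38) did not pass, although its arrays did not overlap, and it became -0.26 with poly-A and -0.073 with hybridisation control scaling. Nkd1, an inhibitor that binds Dishevelled, read 6.16 and 6.34 against 5.82 and 5.91 (log2 fold change -0.39, SE 0.11, limma adjusted p = 0.062). It was called downwards with quantile normalization (limma adjusted p = 0.048) and with hybridisation control scaling (-0.60, limma adjusted p = 0.0089), and its highest adjusted p over the 15 alternatives was 0.28. Nkd2 and Sp5 differed by -0.02 and -0.03, with overlapping arrays. In a wider list of 11 members known as canonical target genes, which adds Notum, Lgr5, Znrf3, Rnf43, Tcf7, Lef1 and Apcdd1, 8 were tested. Apcdd1 and Znrf3 fell and none of this list rose. At an unadjusted limma p under 0.05, 4 of the 8 fell and none rose. Over all 13084 tested genes, 2282 fell and 2229 rose at that threshold. The median log2 fold change was -0.16, beside -0.02 over all genes. The called share was 25.0%, beside 19.2% of all tested genes, in a list chosen with earlier results of these data known. Only 1 of these genes fell when either NSCL61 array or array 2 of NSCL61-sox11 was left out, or with poly-A scaling, and with hybridisation control scaling 4 fell.

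The Sp5 promoter is shown because it held 2 of the motifs: AACAAAG 222 bases before the start and ATCAAAG on its minus strand, printed as CTTTGAT, 104 bases before it. Capitals mark both.
Sp5, chr2:70474673-70474922, plus strand: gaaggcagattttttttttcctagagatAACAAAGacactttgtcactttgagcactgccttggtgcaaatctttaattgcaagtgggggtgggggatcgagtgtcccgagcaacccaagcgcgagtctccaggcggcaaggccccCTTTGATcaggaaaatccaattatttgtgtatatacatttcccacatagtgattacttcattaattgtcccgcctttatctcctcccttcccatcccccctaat

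Beyond the members, 120 other genes of the pathway were listed by role, of which 115 had a probe set and 96 were tested. The called share differed widely between the lists, from 11.4% to 56.5%. Over all 96, 19 rose and 9 fell, a share of 29.2% beside 19.2% of all genes, with a median of 0.01. The count was 12 without NSCL61 array 1 and 15 without NSCL61 array 2, and the split became 7 up and 10 down with poly-A scaling and 14 up and 17 down with hybridisation control scaling.

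Noncanonical receptors and planar polarity genes had the largest share of calls among these lists, 56.5% beside 19.2% of all genes. Of 23 tested, 9 rose and 4 fell. Their median was 0.16, against -0.24 under poly-A and -0.053 under hybridisation control scaling. Leaving out NSCL61 array 1 gave 4 up and none down, and leaving out array 2 gave 5 up and none down. The list gave 3 up and 4 down with poly-A scaling, and 5 up and 5 down with hybridisation control scaling. Gpc4, a cell surface heparan sulfate proteoglycan that binds Wnt ligands, read 6.79 and 6.96 in NSCL61 and 9.47 and 10.12 in NSCL61-sox11, a log2 change of 2.92 (SE 0.21, adjusted p = 0.00053 by limma). Gpc6, a glypican of the same family, read 6.12 and 5.76 against 7.55 and 7.36, a log2 change of 1.51 (SE 0.15, adjusted p = 0.0017 by limma). Ror2, a receptor kinase for Wnt5a, read 5.59 and 5.63 against 7.28 and 6.98, a log2 change of 1.52 (SE 0.13, adjusted p = 0.00096 by limma). The 2 lines stood clearly apart for each of these genes, and their calls were kept in every alternative that gave a value.

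Other ligand and inhibitor genes gave 1 rise and 1 fall among 11 tested, a share of 18.2% beside 19.2% of all genes. Igfbp4, a secreted protein that can also block Wnt receptors, read 12.15 and 12.31 in NSCL61 and 12.90 and 13.24 in NSCL61-sox11 (log2 fold change 0.84, SE 0.12, limma adjusted p = 0.0060), a call lost with poly-A scaling (0.24, the highest over the 15 alternatives). Ndp, which encodes norrin, the ligand of Fzd4, read 6.95 and 6.99 against 6.06 and 6.43 (log2 fold change -0.73, SE 0.14, limma adjusted p = 0.018). The Ndp call was lost without NSCL61 array 1 (0.087) or array 2 (0.10, the highest over the 15 alternatives). Of 35 other destruction complex and nuclear genes, 3 rose and 1 fell, and without NSCL61 array 1 or array 2 only 1 rose and none fell. The called share of that list on the deposited scale, 11.4%, lay below the 19.2% of all genes. That list gave 1 up and 1 down with poly-A scaling, and 2 up and 5 down with hybridisation control scaling. Tle2, a Groucho corepressor that binds Tcf factors, rose by 1.70 (SE 0.19, limma adjusted p = 0.0028), from 6.38 and 6.76 to 8.04 and 8.51. The corepressor gene Ctbp2 read 11.00 and 11.01 in NSCL61 and 10.37 and 10.67 in NSCL61-sox11, and fell by 0.49 (SE 0.11, limma adjusted p = 0.026). Tle4, of the same family as Tle2, read 7.12 and 7.17 against 7.58 and 7.58, and rose by 0.43 (SE 0.09, limma adjusted p = 0.025). Both of these calls were lost without NSCL61 array 1 (0.14 and 0.15) or array 2 (0.15 and 0.12), and that of Tle4 without either NSCL61-sox11 array (0.053 and 0.058) and with hybridisation control (0.38) or poly-A scaling (0.94). The highest adjusted p over the 15 alternatives was 0.15 for Ctbp2 and 0.94 for Tle4.

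Genes known to respond to canonical Wnt signals in some tissues moved in both directions, with 33.3% called beside 19.2% of all genes. Of 27 tested, 6 rose and 3 fell, with a median of -0.02. Without NSCL61 array 1 these were 5 up and 1 down, and with poly-A scaling 3 up and 3 down. Many of them respond to other pathways too. Bmp4 read 6.40 and 6.51 in NSCL61 and 8.83 and 9.23 in NSCL61-sox11, and Ccn4, also named Wisp1, read 7.76 and 7.73 against 9.48 and 9.64, log2 fold changes of 2.57 (SE 0.15) and 1.82 (SE 0.10) with limma adjusted p = 0.00023 and 0.00019. Ccnd2, a D-type cyclin gene, fell from 10.44 and 10.53 to 8.71 and 9.31, a log2 change of -1.47 (SE 0.19, adjusted p = 0.0043 by limma). These calls were kept in each of the 15 alternatives.

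**Figure D4:**
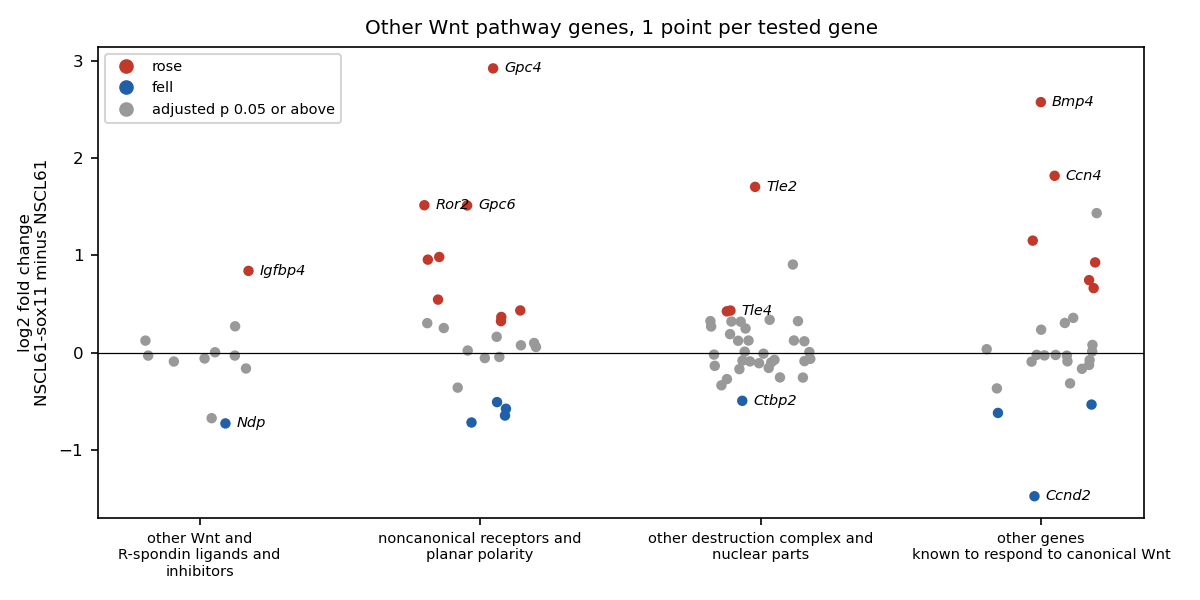
Log2 fold change, NSCL61-sox11 minus NSCL61, of 96 tested Wnt pathway genes outside the set of 58, in 4 lists; 1 point is 1 gene from 2 arrays per line, spread sideways for legibility. Gpc4 at 2.92 and Bmp4 at 2.57 lie highest, and Ccnd2 at -1.47 lies lowest.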

How the data were processed

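RNA of 2 NSCL61 and 2 NSCL61-sox11 samples was hybridised to Affymetrix M430_2 arrays after biotin labelling, per the labels' protocols. The authors deposited 1 value per probe set and array for 45101 probe sets, read here as log2 from their range, since the log base, the summarisation and the normalization are not given in the sources used here. Array medians lay at 5.74 to 5.78. No test used the 64 control probe sets. By the platform annotation, 34945 probe sets had 1 gene symbol, 932 had several and 9160 had none, and genes were named from the first kind only. Non-control probe sets among the brightest 60% by mean over the arrays (27022, mean at least 5.15) were fitted with limma 3.58.1 in R 4.3.3 (lmFit and eBayes with an intensity trend, two-sided, 2 residual degrees of freedom, 6.36 after moderation). P-values were adjusted by Benjamini-Hochberg over all of these, and a gene was called at an adjusted p under 0.05. The code was tested on simulated data. A summed level is the log2 of the sum of a list's linear values. Values on every array are given for each called member, for the brightest uncalled member of a role and for up to 3 called genes with the largest change in each other list; Fzd4, Notum, Wnt6, Rspo1 and the genes beside Wnt10a were chosen after their values were seen. The members and lists were chosen with earlier results of these data known. The alternatives changed the level filter, the scaling, the variance model, the probe set per gene, a replicate block and the arrays included. Array number limits the precision.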

Additional observations from a re-analysis of the deposited data

How the results depend on the processing

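Over the 15 alternatives, 195 of 224 values of the called members kept their direction and call, 29 lost the call and 0 reversed; Wnt7b, Wnt10a, Lgr4 and Apcdd1 kept it in each alternative. With poly-A scaling the called genes numbered 1354 (303 up), the members 6 (2 up) and the other pathway genes 17 (7 up). With hybridisation control scaling 702 genes rose and 2336 fell, and 17 other pathway genes fell. Leaving out 1 array gave 908 to 2692 genes (533 to 1376 up, 307 to 1316 down), 9 to 17 members (6 to 12 up, 2 to 5 down) and 12 to 33 other pathway genes (11 to 21 up, 1 to 12 down). The array numbers are shared only as numbers, with a correlation of 0.41 between deviations of same-numbered arrays; a replicate block, which leaves 1 residual degree of freedom, gave 4830 genes (2389 up, 2441 down), 21 members (13 up, 8 down) and 47 other pathway genes (30 up, 17 down). Members called only under an alternative were Nkd1 (quantile normalization, hybridisation controls, block), Fzd4 (hybridisation controls, block, without array 1 of NSCL61-sox11), Notum (hybridisation controls, block), Wnt5b (block, without array 1 of NSCL61-sox11), Fzd6 and Lrp6 (block) and Rspo1 (no level filter). Poly-A scaling moves every log2 fold change by -0.40, so uncalled members with small positive values turned negative. Among Wnt5a, Fzd6, Kremen1, Ctnnb1 and the 4 feedback targets, the sign changed for those that follow. Wnt5a gave -0.37 with poly-A scaling, -0.18 with hybridisation control scaling and -0.091 to 0.17 with 1 array left out. Kremen1 gave -0.34, -0.15 and -0.086 to 0.22 in that order. With the scalings Ctnnb1 gave -0.29 and -0.10, and Axin2 -0.26 and -0.073. Nkd2 gave -0.11 to 0.067 with 1 array left out, and Sp5 up to 0.040 without array 1 of NSCL61. The cause was not tested. Each control scaling shifts all log2 fold changes by one amount but each array by its own amount, so spread within a line can change too. A left-out array leaves fewer samples. With 1 line per genotype and 2 arrays per line, effects of the clone and of sox11 cannot be told apart, and probe sets near background carry little information.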
